A study of Mus musculus with 3 samples.

Results

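Plasminogen activation and fibrin handling were described here through 9 genes of the 32285 in the count files: Plat, Plau, Plaur, Serpine2, Serpinb2, F3, F13a1, Thbd and Tfpi. The genes were listed by name and matched by Ensembl identifier, and all 9 had unique molecular identifiers (UMIs, each standing for 1 captured transcript) in all 3 libraries. Their UMIs were summed by day and by cell class, and each sum was expressed relative to all UMIs of that class and day on the usual CPM scale.

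When a vessel is cut, tissue factor (F3) on cells outside the blood starts the clotting cascade, thrombin turns fibrinogen into fibrin, and coagulation factor XIII cross-links the fibrin into a firm provisional matrix. That matrix is later removed by plasmin, which tissue-type (Plat) and urokinase-type (Plau) activators release from plasminogen, the latter often bound to its receptor on the cell surface (Plaur). Serpins such as Serpine2 and Serpinb2 inhibit the activators, and thrombomodulin (Thbd) and tissue factor pathway inhibitor (Tfpi) restrain clotting itself.

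The study profiled single cells of wounded mouse back skin at Day 3, Day 7 and Day 14 after wounding. All animals were male C57BL/6J mice of 7 to 12 weeks with full-thickness punch wounds of 4 mm, the labels name no mutant allele, transgene or drug in any group, and no unwounded skin is among the samples analysed here. Cells were dissociated and loaded unsorted, and by their labels the groups differ in the time after injury alone. Tissue of 4 wound samples was pooled into 1 library per day, so that differences between days cannot be told apart from differences between libraries, pools or dissociations; no test was possible, and every 95% interval given below covers counting error only.

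After filtering, 4360, 19590 and 13510 cells were kept on Days 3, 7 and 14, 37460 in all, with median UMIs per cell of 3511, 3223 and 5885. Clusters were named from standard markers, save that those of the mesenchymal cell-like class came from the study's table of these libraries. In each of the 21 class-days with at least 50 cells every marker of the class was at least 2-fold higher than in the other cells. None was at 0. The same markers had named the clusters, so this excess follows in part from the naming and is no separate check of it. Fibroblast-like cells numbered 397, 5161 and 6507 and carried 55.3%, 55.8% and 71.0% of the UMIs of kept cells, and macrophage-like cells numbered 2622, 9504 and 3080. On Day 3 the fibroblast-like cells were deep, with a median of 44284 UMIs against 10332 and 10321 later, which makes shares of cells with a UMI incomparable unless cells are thinned to equal depth. Pericyte-like, epithelial cell-like, endothelial cell-like, T cell-like and mesenchymal cell-like cells had fewer than 50 cells on Day 3, and neutrophil-like cells had 21 on Day 14, so that those 21 class-days are described. Of the cell barcodes, 43 were shared by the Day 3 and Day 7 libraries, 19 by Day 3 and Day 14 and 111 by Day 7 and Day 14.

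Across the 21 class-days, 7 of the 9 genes had their highest level on Day 3, as did 24% of the 14384 genes with at least 5 CPM in some class-day. The lead was small for Plau (1.05-fold over the next) and Tfpi (1.10-fold). Fibroblast-like cells of Day 3 held the highest level of Plat, Plau, Serpinb2 and Tfpi, neutrophil-like cells of Day 3 that of Plaur and F3, and macrophage-like cells of Day 3 that of F13a1. The exceptions were Serpine2, highest in pericyte-like cells of Day 7, and Thbd, highest in pericyte-like cells of Day 14. By share of cells with a UMI after thinning to 500 UMIs, 3 genes had their peak elsewhere. Thbd (13.4%) and F3 (12.6%) were then highest in fibroblast-like cells of Day 3, and Plau (3.49%) in pericyte-like cells of Day 14. After thinning to 1000 UMIs the peaks of all 9 lay where those by CPM did. Many neighbours in each order were not separated: intervals overlapped in 14 of the 20 neighbouring pairs for Serpinb2, the fewest among the 9, and in 19 of 20 for Plau, the most.

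**Figure D1:**
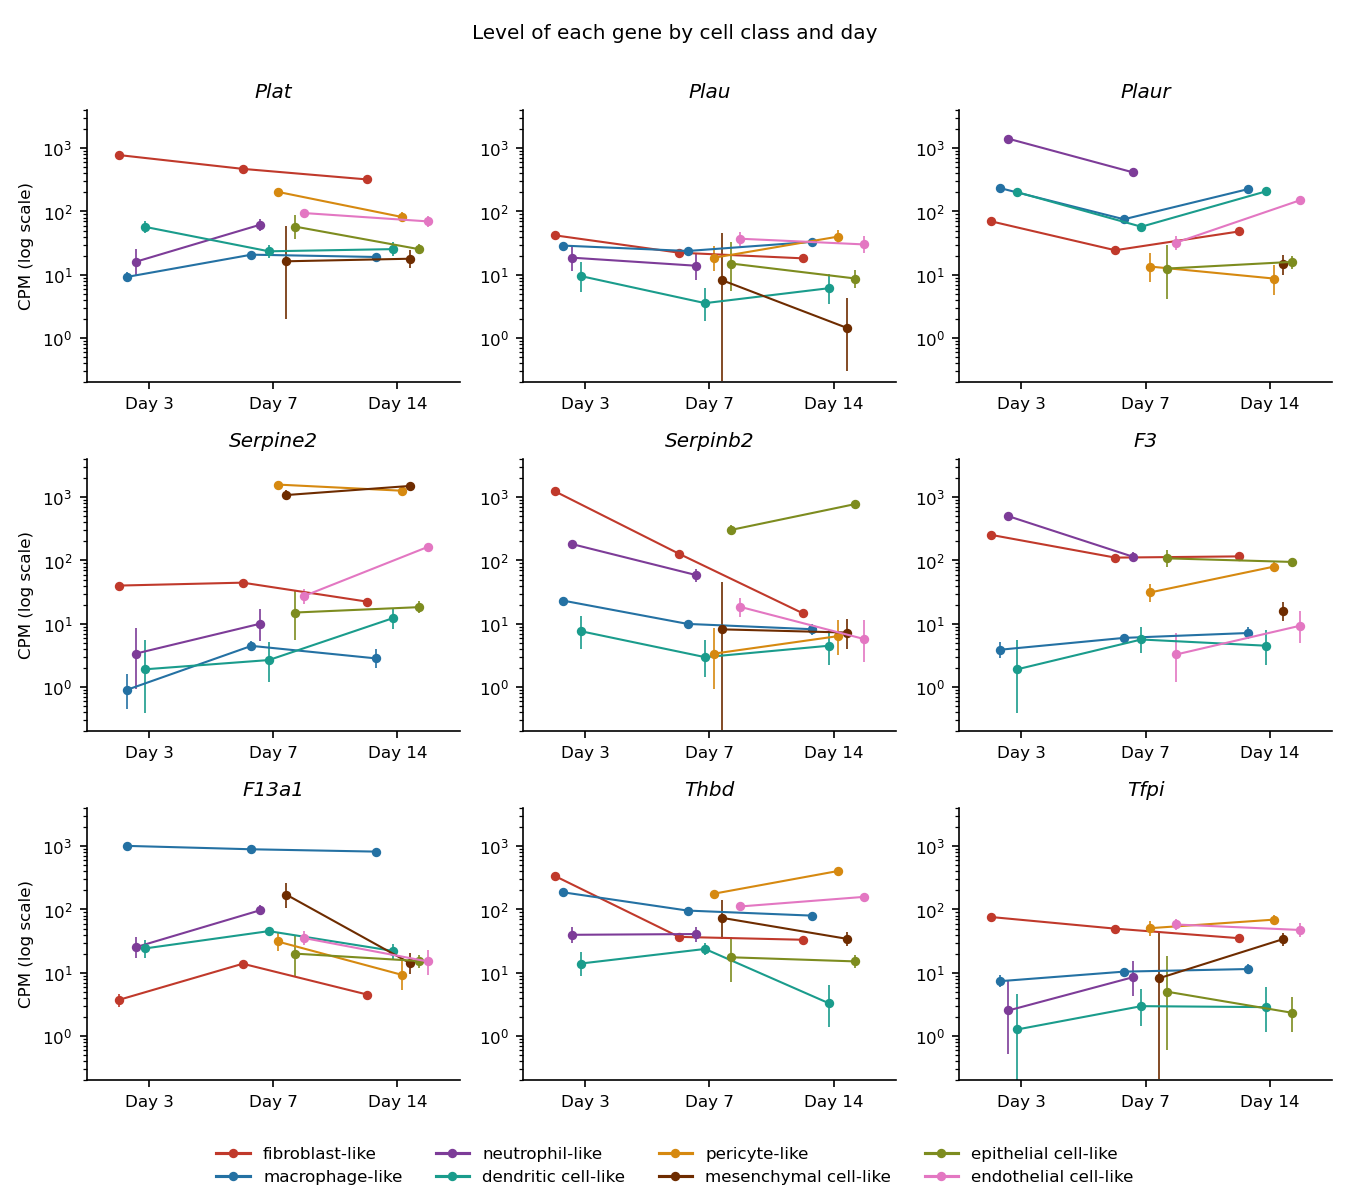
Level of each of the 9 genes (CPM, log axis) by day after wounding in 8 cell classes. Points are sums over all cells of a class and day with at least 50 cells, bars are 95% Poisson intervals (counting error only), and points at 0 UMIs are not drawn; Serpinb2 in fibroblast-like cells goes from 1239.9 to 128 to 14.6 CPM.

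The promoters of Serpinb2, F3 and Plaur are shown because these 3 genes were more than 2-fold lower on Day 7 than on Day 3 in fibroblast-like and neutrophil-like cells alike, as 1.66% of 6094 genes were, and because they were also the 3 that held a match to the AP-1 motif. The sequences are the 250 bases before the start in the RefSeq table of GRCm38.p6, 5′ to 3′ on the strand of the gene, which is the plus strand for all 3; capitals mark each match to TGANTCA, a motif that reads the same on both strands. The windows are chr1:107511173-107511422 for Serpinb2, chr3:121723287-121723536 for F3 and chr7:24462233-24462482 for Plaur. Serpinb2 has another start in that table, whose window is not shown.
Serpinb2: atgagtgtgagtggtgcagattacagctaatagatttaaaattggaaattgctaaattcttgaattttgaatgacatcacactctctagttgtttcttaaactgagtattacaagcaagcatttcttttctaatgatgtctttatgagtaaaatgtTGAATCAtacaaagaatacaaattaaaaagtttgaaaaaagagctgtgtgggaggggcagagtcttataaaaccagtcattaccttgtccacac
F3: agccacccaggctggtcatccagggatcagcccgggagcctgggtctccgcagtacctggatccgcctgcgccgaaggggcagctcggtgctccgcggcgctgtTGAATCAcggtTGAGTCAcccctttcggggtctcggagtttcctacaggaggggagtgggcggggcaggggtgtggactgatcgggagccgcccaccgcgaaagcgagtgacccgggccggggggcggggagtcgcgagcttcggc
Plaur: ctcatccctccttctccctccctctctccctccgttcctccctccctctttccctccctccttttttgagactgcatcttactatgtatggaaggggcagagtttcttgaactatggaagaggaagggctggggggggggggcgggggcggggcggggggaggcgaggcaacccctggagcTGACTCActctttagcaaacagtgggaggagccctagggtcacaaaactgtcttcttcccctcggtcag

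AP-1 is the dimer of Fos and Jun proteins that many growth and stress signals switch on. Of all 32851 promoter windows of this length, 2217 (6.75%) held TGANTCA, and among the 9 genes an entry was present for 6, of which Serpinb2, F3 and Plaur held it. Counted by windows, these 6 genes had 9, of which 4 held the motif. Serpinb2 had 1 match at positions -94 to -88 relative to the start shown, F3 had 2 matches at -146 to -140 and -135 to -129, and Plaur had 1 match at -69 to -63. Relative to the other Serpinb2 start, the match lay at -181 to -175. The TATA motif TATAAA, searched on both strands and held by 12.4% of promoter windows, was found in Serpinb2 and Tfpi promoters. It lay at -29 to -24 of the Serpinb2 start shown and at -116 to -111 of the other. No window of the 6 genes held the CRE motif TGACGTCA, which 1.55% of all windows did. The motifs were chosen with the levels known, and a match is a description of the letters, not a bound site. Plat, Plau and Thbd had no entry.

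Plat, tissue-type plasminogen activator (ENSMUSG00000031538, chromosome 8, 22757727 to 22782844, plus strand, GRCm38), was mainly a transcript of fibroblast-like cells, which held 97.2%, 88.4% and 94.7% of its UMIs on Days 3, 7 and 14. Its level there was 779 CPM on Day 3 (interval 766 to 791), 471 CPM on Day 7 (465 to 476) and 321 CPM on Day 14 (316 to 325). The level was thus lower at each later day, 1.65-fold from Day 3 to Day 7 and 1.47-fold from Day 7 to Day 14, with intervals that do not overlap. Thinned to 500 UMIs, 31.2%, 20.9% and 13.8% of fibroblast-like cells had a Plat UMI (98%, 92.3% and 75.0% at full depth), against 0.538% and 0.322% of T cell-like cells on Days 7 and 14. Pericyte-like cells followed with 204 CPM on Day 7 and 81.9 CPM on Day 14, and endothelial cell-like cells, the classical source of this activator in vessels, had 94.5 and 69.7 CPM. In macrophage-like cells Plat stood at 9.28, 20.8 and 19.1 CPM, that is 1.19%, 4.42% and 5.96% of the fibroblast-like level. For comparison, 8 fibroblast markers stood in the macrophage-like cells at a median of 0.705%, 3.52% and 3.70% of their fibroblast-like level (ranges 0.501% to 1.00%, 2.44% to 4.92% and 2.59% to 4.22%). Plat there was above this range on Days 3 and 14 and inside it on Day 7, and the part that RNA from fibroblasts has in it was not tested.

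Plau, urokinase-type plasminogen activator (ENSMUSG00000021822, chromosome 14, 20836660 to 20843385, plus strand), was low and spread over several classes. Fibroblast-like cells had 42.0 CPM on Day 3 (39.2 to 45.0), 22.3 CPM on Day 7 (21.1 to 23.6) and 18.2 CPM on Day 14 (17.2 to 19.2). Macrophage-like cells had 28.9, 23.8 and 33.1 CPM, so that Plau was 1.45-fold higher in fibroblast-like cells on Day 3 and 1.82-fold lower on Day 14, while on Day 7 the 2 classes were not separated (log2 ratio -0.09, -0.23 to 0.05). The highest level of all, on Day 3 in fibroblast-like cells, was only 1.05-fold above the next, that of pericyte-like cells of Day 14 at 40.1 CPM, and the intervals of the pair overlap. Endothelial cell-like cells had 37.1 CPM on Day 7 and 30.2 CPM on Day 14. Levels were low in dendritic cell-like cells, with 9.55, 3.57 and 6.16 CPM, and lowest in mesenchymal cell-like cells of Day 14, with 1.46 CPM.

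Plaur, the cell surface receptor that holds urokinase on the membrane (ENSMUSG00000046223, chromosome 7, 24462484 to 24475968, plus strand), had its highest levels in myeloid cells. Of its UMIs, macrophage-like cells held 45.3%, 45.2% and 38.4% on Days 3, 7 and 14, neutrophil-like cells 26.6% and 11.9% on Days 3 and 7, and fibroblast-like cells 21.6%, 30.1% and 46.4%. Neutrophil-like cells had 1409 CPM on Day 3 (1342 to 1478) and 416 CPM on Day 7 (382 to 453), 3.39-fold lower. Macrophage-like cells had 235 CPM on Day 3 (226 to 243), 75.3 CPM on Day 7 and 226 CPM on Day 14 (217 to 234). Day 7 was therefore the low point in macrophage-like cells, 3.12-fold below Day 3 and 3.00-fold below Day 14, although different clusters held most of the class on each day, cluster 2 holding 81.7% of it on Day 3 and 8.53% on Day 7 and clusters 6 and 12 holding 44.6% and 18.5% on Day 14. Day 7 was the low point also in dendritic cell-like cells, with 202, 57.4 and 207 CPM, and in fibroblast-like cells, with 70.0, 24.4 and 48.5 CPM. In endothelial cell-like cells, Plaur was 32.2 CPM on Day 7 and 151 CPM on Day 14, 4.68-fold higher, with a median of 0, a highest cell of 43 UMIs and 67.6% of the UMIs in the 10% of cells with the most on Day 14. T cell-like cells had 20.6 and 33.7 CPM, and pericyte-like cells, 13.5 and 8.71 CPM, lay near the low end of the order.

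With every cell thinned to 500 UMIs, 42.9% of neutrophil-like cells had a Plaur UMI on Day 3 and 16.0% on Day 7. In macrophage-like cells the thinned shares were 10.1%, 3.60% and 8.31%, against 0.269% and 1.29% in T cell-like cells on Days 7 and 14. The low point on Day 7 in macrophage-like cells was thus seen at equal depth too. Gm42418, which overlaps ribosomal RNA and is often read as a sign of RNA quality, was highest on the same day in these cells, at 39376, 165373 and 94695 CPM. With the 50 most abundant genes left out of the totals the log2 ratio of Plaur in macrophage-like cells from Day 3 to Day 7 was -1.41, and the part of Gm42418 in the rest was not tested. At full depth the shares were 65.5% and 22.9% in neutrophil-like cells and 46.1%, 16.3% and 40% in macrophage-like cells. No kept cell was left out by thinning, since each held at least 500 UMIs. T cell-like cells, with median UMIs of 1421.5 and 1774 on Days 7 and 14, are set beside the other classes throughout. Macrophage markers stood in them at a median of 10.3% and 2.37% of the macrophage-like level, against 1.67% and 0.470% in fibroblast-like cells. Shares in T cell-like cells are therefore a comparison, not a background level for other classes.

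Serpine2, protease nexin 1, a serpin that inhibits thrombin and both activators (ENSMUSG00000026249, chromosome 1, 79794197 to 79861180, minus strand), marked 2 stromal classes apart from the main fibroblast-like cells. Pericyte-like cells had 1579 CPM on Day 7 (1508 to 1652) and 1263 CPM on Day 14 (1211 to 1317). Mesenchymal cell-like cells, a class named with markers that the study derived from these libraries, had 1079 CPM on Day 7 (903 to 1279) and 1504 CPM on Day 14 (1452 to 1558). The highest level exceeded the second by 1.05-fold only, and the intervals of Day 7 pericyte-like and Day 14 mesenchymal cell-like cells overlap. Fibroblast-like cells stood far lower, at 40.1, 44.6 and 22.4 CPM, and macrophage-like cells at 0.911, 4.48 and 2.85 CPM. The thinned shares of cells with a UMI were 48.6% and 45.8% in pericyte-like and 42.2% and 38.5% in mesenchymal cell-like cells on Days 7 and 14, against 0.269% and 0% in T cell-like cells (0 of 311, where a limit of 3 cells is 0.965%). At full depth they were 95.7% and 89.5% in pericyte-like and 68.8% and 76.9% in mesenchymal cell-like cells.

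The main source of Serpine2 UMIs differed between days, as did the cells recovered: pericyte-like cells numbered 10, 185 and 430 and mesenchymal cell-like cells 4, 64 and 706. Fibroblast-like cells held 77.4% of them on Day 3, 44.5% on Day 7 and 20.8% on Day 14. Pericyte-like cells held 33.4% on Day 7 and 29.2% on Day 14, and mesenchymal cell-like cells 41.7% on Day 14, while the unnamed cluster 18 held 15.3% on Day 7. Epithelial cell-like cells, at 15.1 and 18.3 CPM, and dendritic cell-like cells, at 1.91, 2.68 and 12.3 CPM, carried little. In endothelial cell-like cells the level was 27.3 CPM on Day 7 and 164 CPM on Day 14, 6.00-fold higher, but few cells carried it: the median cell had 0, the highest had 50, and the 10% with the most held 86.8% of the UMIs on Day 14.

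Serpinb2, plasminogen activator inhibitor 2 (ENSMUSG00000062345, chromosome 1, 107511423 to 107535478, plus strand), differed more between days in fibroblast-like cells than the other 8 genes did. Fibroblast-like cells had 1239.9 CPM on Day 3 (1224 to 1256), 128 CPM on Day 7 (125 to 131) and 14.6 CPM on Day 14 (13.7 to 15.5). That is 9.71-fold lower from Day 3 to Day 7, 8.77-fold lower from Day 7 to Day 14 and 85.2-fold lower over the whole course. The UMIs of Day 3 were uneven between cells: the median fibroblast-like cell had 35 Serpinb2 UMIs, the highest had 778, and the 10% of cells with the most held 41.5% of them. Thinned to 500 UMIs, 38.0% of fibroblast-like cells had a Serpinb2 UMI on Day 3, 4.30% on Day 7 and 0.615% on Day 14. T cell-like cells had 1.08% and 0.643% on Days 7 and 14, and 13.8 CPM (6.31 to 26.2) on Day 14. Over all fibroblast-like cells the Day 14 share thus did not exceed that of T cell-like cells. The Day 14 UMIs were nonetheless uneven, with 57 in the highest cell, and by cluster the level was 49.7 CPM in cluster 3 and 38.9 CPM in cluster 24 against 7.89 CPM in cluster 0 and 2.67 CPM in cluster 9. At full depth the shares were 79.6%, 18% and 4.63%.

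Epithelial cell-like cells, the skin's barrier cells, went the other way for Serpinb2, with 304 CPM on Day 7 (252 to 363) and 778 CPM on Day 14 (753 to 804), 2.56-fold higher. The UMIs lay in few cells, the median cell having 0 and the 10% of cells with the most holding 74.4% and 68.8% of them. The gene's main source differed between days: fibroblast-like cells held 97.4%, 89.5% and 20.8% of its UMIs on Days 3, 7 and 14, and epithelial cell-like cells 75.5% on Day 14, when the latter held 4.82% of the UMIs of all kept cells against 0.398% on Day 7. Only 51 epithelial cell-like cells stood behind the Day 7 value, against 703 on Day 14. Neutrophil-like cells had 181 CPM on Day 3 (158 to 207) and 58.7 CPM on Day 7, which were 14.6% and 46.0% of the fibroblast-like level, where fibroblast markers stood at a median of 1.21% and 10.2%. In all other class-days but those of macrophage-like cells on Day 3 (23.2 CPM) and endothelial cell-like cells on Day 7 (18.6 CPM), Serpinb2 stood below the 14.6 CPM of fibroblast-like cells on Day 14. Serpinb10, which overlaps Serpinb2 on the same strand in the annotation, was not among the 32285 genes of the deposited counts.

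**Figure D2:**
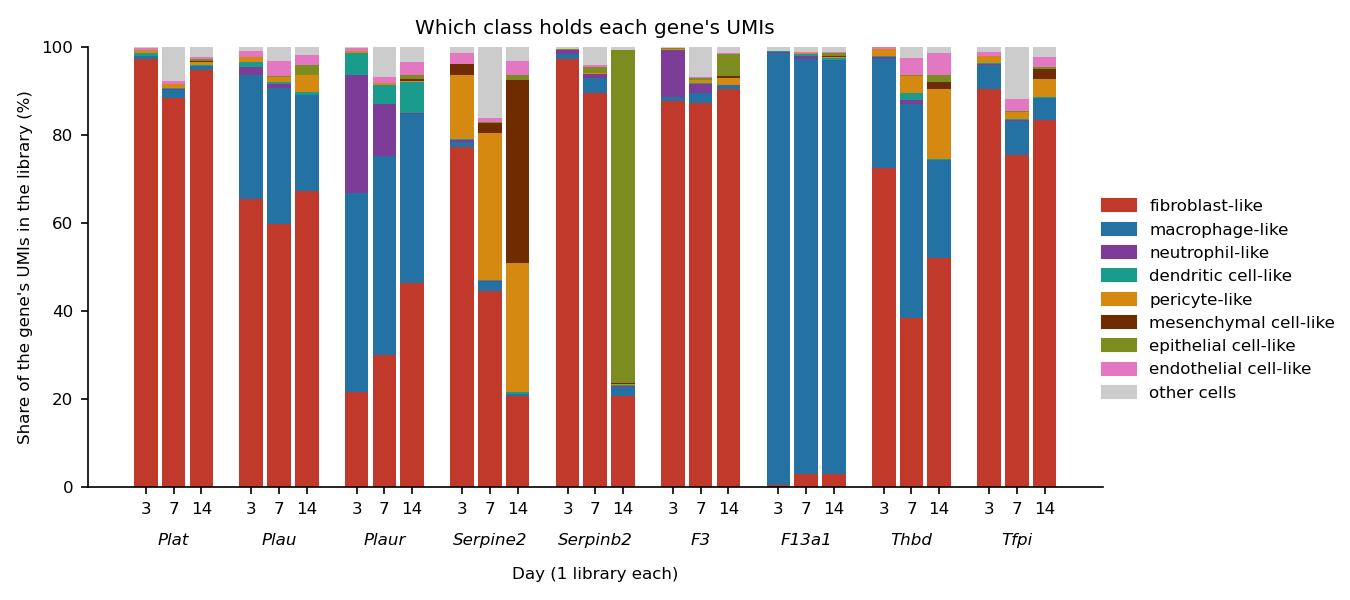
Share of each gene's UMIs (%) held by each cell class in the Day 3, Day 7 and Day 14 libraries, as stacked bars for the 9 genes. Serpinb2 passes from fibroblast-like cells (97.4% on Day 3) to epithelial cell-like cells (75.5% on Day 14), whereas F13a1 stays with macrophage-like cells (98%, 94.4% and 94.1%).

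F3, tissue factor, the membrane receptor that starts clotting (ENSMUSG00000028128, chromosome 3, 121723537 to 121735048, plus strand), was shared by fibroblast-like, neutrophil-like and epithelial cell-like cells. Fibroblast-like cells had 254 CPM on Day 3 (247 to 261), 111 CPM on Day 7 and 116 CPM on Day 14, and held 87.8%, 87.3% and 90.4% of its UMIs. Neutrophil-like cells had 501 CPM on Day 3 (461 to 543, from 591 UMIs) and 115 CPM on Day 7 (97.3 to 135), 4.35-fold lower. The neutrophil-like level was 197% of the fibroblast-like level on Day 3, while the 8 fibroblast markers stood at most at 3.36% of theirs in the same cells; on Day 7 it was 104%. The neutrophil-like UMIs came from few cells, with the median cell at 0, the highest at 35 and 84.9% of the UMIs in the 10% of cells with the most. Thinned to 500 UMIs, 11.8% of neutrophil-like cells had an F3 UMI on Day 3 and 4.65% on Day 7, beside 12.6%, 4.71% and 5.09% of fibroblast-like cells and 0.269% and 0.643% of T cell-like cells. At full depth the shares were 19.3% and 6.36% of neutrophil-like cells and 82.1%, 45.4% and 44.6% of fibroblast-like cells. Epithelial cell-like cells had 108 CPM on Day 7 and 94.9 CPM on Day 14, and the intervals of the fibroblast-like, neutrophil-like and epithelial cell-like cells of Day 7 overlap. Pericyte-like cells had 31.2 CPM on Day 7 and 80.2 CPM on Day 14, 2.57-fold higher, whereas endothelial cell-like cells, which are known to lack tissue factor at rest, had 3.28 and 9.34 CPM.

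Tfpi, the inhibitor of the tissue factor complex (ENSMUSG00000027082, chromosome 2, 84432855 to 84476775, minus strand), was lower at each later day in fibroblast-like cells, with 76.0, 49.8 and 35.1 CPM. Those cells held 90.5%, 75.4% and 83.5% of its UMIs. Pericyte-like cells reached like levels, 50.7 CPM on Day 7 and 69.1 CPM on Day 14, and endothelial cell-like cells had 57.9 and 47.4 CPM. Macrophage-like cells had 7.37, 10.4 and 11.5 CPM. On Day 3 fibroblast-like cells stood 1.10-fold above Day 14 pericyte-like cells, with overlapping intervals, and the stromal and endothelial classes together held the top 8 places of the order.

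Thbd, thrombomodulin, which turns thrombin from a clotting into an anticoagulant enzyme (ENSMUSG00000074743, chromosome 2, 148404466 to 148408188, minus strand), was not the mark of a single class. Fibroblast-like cells had 339 CPM on Day 3 (330 to 347), 36.9 CPM on Day 7 and 33.2 CPM on Day 14, 9.17-fold lower from Day 3 to Day 7. Pericyte-like cells had 177 CPM on Day 7 (154 to 203) and 405 CPM on Day 14 (375 to 436), 2.28-fold higher. Macrophage-like cells had 186, 96.0 and 80.0 CPM. The fibroblast-like cells thus led the macrophage-like cells by 1.82-fold on Day 3 and lay 2.60-fold and 2.41-fold below them on Days 7 and 14. Dendritic cell-like cells had the lowest level, 3.28 CPM on Day 14 after 14.0 and 23.8 CPM. Endothelial cell-like cells, where thrombomodulin is best known, had 111 CPM on Day 7 and 158 CPM on Day 14. Day 3 fibroblast-like cells were uneven for Thbd too, with a median of 4 UMIs, a highest cell of 266 and 53.7% of the UMIs in the 10% of cells with the most. The thinned shares there were 13.4%, 1.98% and 1.83%, and 77.6%, 21.8% and 21.4% at full depth, against thinned shares of 0.538% and 0% in T cell-like cells on Days 7 and 14.

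F13a1, the catalytic A chain of factor XIII (ENSMUSG00000039109, chromosome 13, 36867178 to 37050244, minus strand), belonged to macrophage-like cells and, summed over that class, differed little between days. Macrophage-like cells had 1009 CPM on Day 3 (991 to 1027), 892 CPM on Day 7 and 819.6 CPM on Day 14, 1.13-fold and then 1.09-fold lower, differences that changed sign under some alternatives (log2 ratios up to 0.05). They held 98%, 94.4% and 94.1% of its UMIs. The thinned shares of macrophage-like cells with a UMI were 34.8%, 31.3% and 31.3%, and 80.7%, 66.3% and 70.2% at full depth. Fibroblast-like cells had 3.72, 13.9 and 4.54 CPM, which is 0.369%, 1.56% and 0.554% of the macrophage-like level, where 9 macrophage markers stood at a median of 0.482%, 1.67% and 0.470%. T cell-like cells had 75.0 CPM on Day 7 and 32.2 CPM on Day 14, or 8.41% and 3.93% of the macrophage-like level, beside a median of 10.3% and 2.37% for the macrophage markers. Next after the macrophage-like cells came the 64 mesenchymal cell-like cells of Day 7, at 172 CPM from 21 UMIs, against 14.1 CPM in that class on Day 14. The thinned shares in fibroblast-like cells, 0% (0 of 397, where a limit of 3 cells is 0.756%), 0.543% and 0.2%, lay beside 3.23% and 0.965% in T cell-like cells on Days 7 and 14. The part that RNA from macrophages has in the F13a1 of other classes was not tested.

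Between Day 3 and Day 7, 4 of the 9 genes were lower by more than 2-fold in fibroblast-like cells: Serpinb2 (log2 ratio -3.28, interval -3.32 to -3.24), Thbd (-3.20, -3.27 to -3.13), Plaur (-1.52, -1.63 to -1.41) and F3 (-1.19, -1.25 to -1.14). Plau, Plat and Tfpi were lower by less, 1.88-fold, 1.65-fold and 1.53-fold, and Serpine2 was 1.11-fold higher. Among the 9476 genes with a mean of at least 5 CPM over both days, 9.49% were more than 2-fold lower and 4.8% more than 2-fold higher, and the median log2 ratio was -0.22, against -0.91 for the 9 genes. The gene more than 2-fold higher was F13a1 (1.90, 1.55 to 2.27), which stood in these cells near the level of the macrophage markers on both days and had a log2 ratio of 3.45 with called doublets kept. Gm42418 was higher on Day 7 in fibroblast-like cells too, at 34484, 91195 and 55434 CPM over the 3 days, and its part in these differences was not tested.

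Of the 397 fibroblast-like cells of Day 3, 364 lay in cluster 15, which had 426 cells on Day 7. Its leading genes included Cxcl5, Saa3 and Nos2, which inflammatory signals induce, and Ube2c, Top2a, Pclaf and Birc5, which dividing cells express, so its cells need not be alike on both days. Within this cluster alone, Serpinb2 was 1299 CPM on Day 3 and 175 CPM on Day 7 (log2 ratio -2.89, -2.98 to -2.81), Thbd 346 and 28.6 CPM, and F3 261 and 94.5 CPM. Plat, at 778 and 354 CPM, and Plau, at 41.8 and 15.3 CPM, were more than 2-fold lower here, and Plaur was 70.7 and 30.1 CPM. Serpine2 went from 39.6 to 58.5 CPM in cluster 15. The lower Day 7 levels were thus seen within a single cluster as well as over the class.

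From Day 7 to Day 14 fewer of the 9 genes moved past 2-fold in fibroblast-like cells. Serpinb2 was 8.77-fold lower (log2 ratio -3.13) and F13a1 3.06-fold lower (-1.61), 2 of 9 lower and 0 higher, where 4.26% and 2.6% of 9153 genes were. Different clusters held the class on the 2 days: clusters 3, 7 and 11 held 34.9%, 31.7% and 20% of it on Day 7, and clusters 0 and 9 held 53.6% and 21.2% on Day 14. Within single clusters Serpinb2 was lower by less than over the class, with log2 ratios of -1.04 in cluster 0, -1.61 in cluster 3 and -1.51 in cluster 11. Plaur, 1.98-fold higher (0.99, 0.90 to 1.08), and Serpine2, 1.99-fold lower (-0.99, -1.09 to -0.90), lay just inside the 2-fold limit. F3 and Thbd, which had differed between Day 3 and Day 7, were within 1.05-fold and 1.11-fold. The median over the 9 genes was -0.50, against -0.16 over all genes counted.

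**Figure D3:**
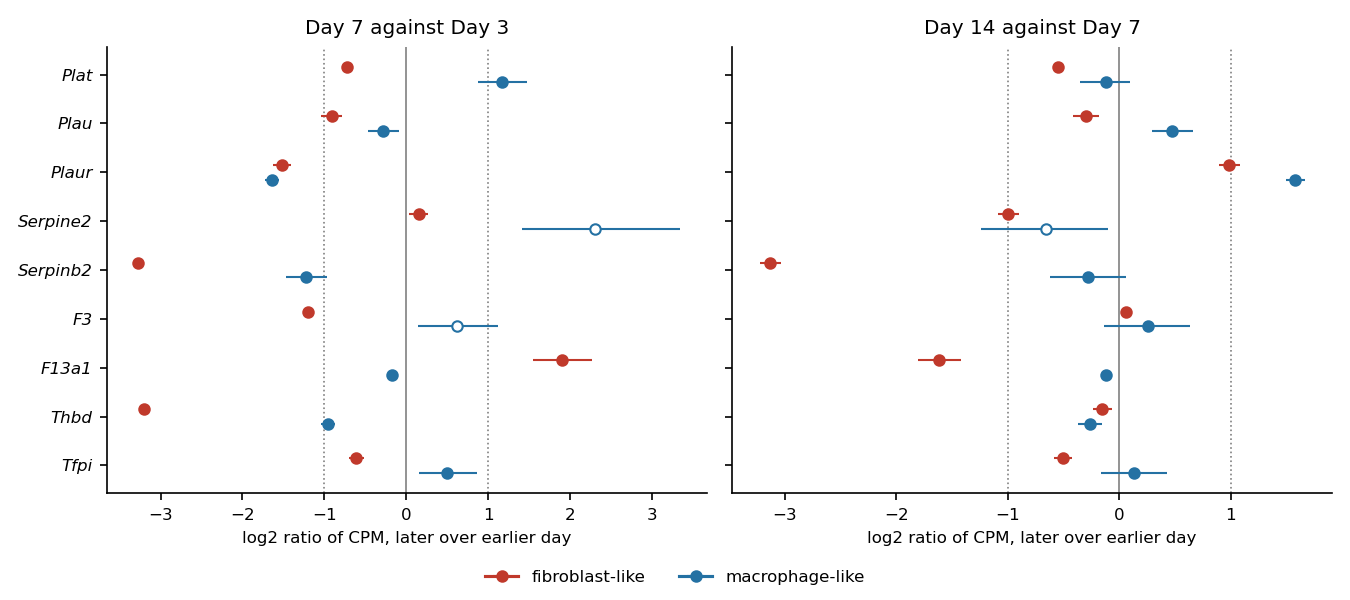
Log2 ratio of CPM between days for the 9 genes in fibroblast-like (red) and macrophage-like (blue) cells, with 95% counting intervals; dotted lines mark 2-fold, and open circles mark genes under a mean of 5 CPM. Serpinb2 and Thbd lie furthest below 0 from Day 3 to Day 7 in fibroblast-like cells (-3.28 and -3.20), and Plaur in macrophage-like cells lies at -1.64 and then at 1.58.

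Among those of the 9 genes with a mean of at least 5 CPM in macrophage-like cells, Plaur had the largest difference at both steps. It was lower on Day 7 than on Day 3 (log2 ratio -1.64, -1.72 to -1.56) and higher again on Day 14 (1.58, 1.5 to 1.67). Serpinb2 was 2.33-fold lower on Day 7 (-1.22, -1.47 to -0.97), Plat 2.24-fold higher (1.17, 0.87 to 1.47) and Thbd 1.94-fold lower. The lower Serpinb2 level was not seen in the 3 clusters that could be followed, where its log2 ratio was -0.20 in cluster 1 (-1.64 to 1.74), 0.93 in cluster 2 and 0.16 in cluster 5. Thbd was lower in cluster 1 (-0.71, 173 to 106 CPM), higher in cluster 2 (0.42, 0.29 to 0.55) and -0.04 in cluster 5 (-0.36 to 0.31). Of the 7 genes with a mean of at least 5 CPM, 2 were therefore more than 2-fold lower and 1 higher on Day 7, where 4.91% and 3.73% of 8736 genes were. From Day 7 to Day 14, 1 of 8 was higher and 0 lower, where 2.84% and 3.91% of 8789 genes were. The higher Plat level of Day 7 went with a higher level of fibroblast markers in the same cells, 0.705% of the fibroblast-like level on Day 3 and 3.52% on Day 7, and their part in it was not tested.

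Within single clusters of macrophage-like cells Plaur was likewise lower on Day 7 than on the days before and after, though by less than over the class at the earlier step. From Day 3 to Day 7 it was lower in clusters 1 (122 to 51.8 CPM), 2 (264 to 156 CPM) and 5 (36.1 to 21.1 CPM), with log2 ratios of -1.23, -0.76 and -0.77, the 3 with at least 100 cells on both days. From Day 7 to Day 14 it was higher in all 6 such clusters, among them cluster 4 (96.8 to 279 CPM), cluster 6 (90.3 to 198 CPM) and cluster 12 (143 to 368 CPM). Serpinb2 in cluster 2 was 26.9 CPM on Day 3 and 51.2 CPM on Day 7. F13a1 differed widely between clusters: cluster 5, led by Lyve1, Folr2 and Cd163, which mark macrophages resident in tissue, had 1412, 1943 and 1510.2 CPM, whereas cluster 12 had 260.2 CPM on Day 7 and 336 CPM on Day 14. From Day 7 to Day 14 F13a1 was lower in 5 of the 6 clusters, from cluster 5 (log2 ratio -0.36) to cluster 1 (-0.96, 665 to 342 CPM). It was higher in cluster 12 (0.37). Each of the 6 differences was larger in size than that over the class (-0.12). Cluster 5 was also the low end for Plaur. Thbd was highest in cluster 2, with 205 CPM on Day 3 and 275 CPM on Day 7.

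**Figure D4:**
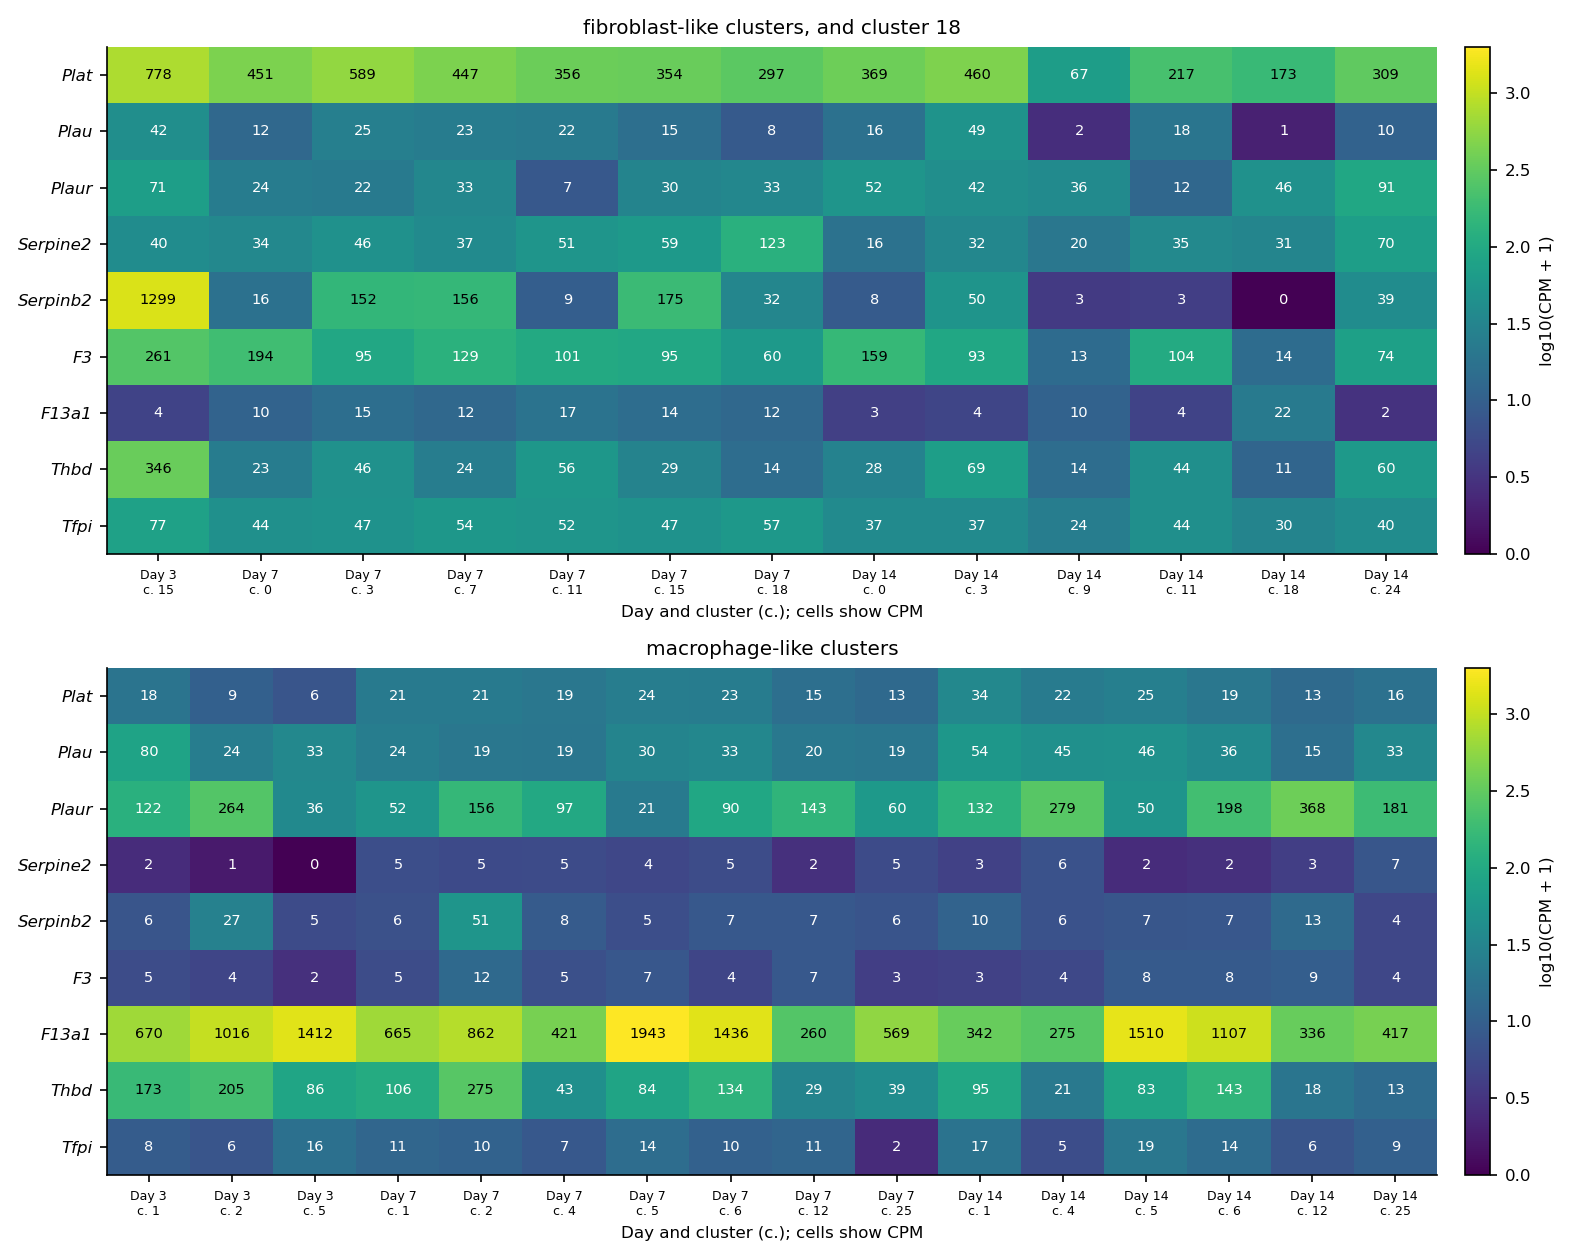
Level of the 9 genes in each cluster with at least 100 cells on a day, for the fibroblast-like clusters and cluster 18 and for the macrophage-like clusters. Shade is log10(CPM + 1) and the printed numbers are CPM; Serpinb2 in cluster 15 goes from 1299 to 175, and F13a1 in macrophage-like cluster 5 reads 1412, 1943 and 1510.2.

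Neutrophil-like cells could not be followed within a cluster, because 777 of the 872 cells of Day 3 lay in cluster 14 and 1570 of the 1635 cells of Day 7 in cluster 8. The 3.39-fold, 4.35-fold and 3.09-fold lower levels of Plaur, F3 and Serpinb2 on Day 7 are thus also differences between these clusters. Of all 7014 genes counted in neutrophil-like cells, 7.83% were more than 2-fold lower and 22.3% more than 2-fold higher on Day 7, against 3 and 4 of the 9. Of the 3 lower, F3 was 509 CPM in cluster 14 and 107 CPM in cluster 8. Among the 4 higher, Plat was 3.84-fold and F13a1 3.83-fold higher, and the intervals of Serpine2 and Tfpi include no difference. Plat stood here at 2.07% and 13.1% of the fibroblast-like level on Days 3 and 7, beside a median of 1.21% and 10.2% for fibroblast markers. F13a1 stood at 2.52% and 10.9% of the macrophage-like level, beside a median of 3.75% and 11.97% for macrophage markers. The part that RNA from other classes has in these higher levels was not tested. The median UMIs per neutrophil-like cell were 1226.5 and 708. Dendritic cell-like cells, in contrast, kept the low Plaur level of Day 7 within cluster 10, at 240.2, 77.5 and 239 CPM.

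Summed over all kept cells, where each cell counts by its UMIs, 4 of the 9 genes were more than 2-fold lower on Day 7 than on Day 3 and 0 higher, where 7.63% and 3.98% of 9953 genes were. Serpinb2 stood at 705, 79.6 and 49.7 CPM over the 3 days, Thbd at 259, 53.7 and 45.3 CPM, and Plaur at 179, 45.3 and 74.2 CPM. F3, the fourth, stood at 159.9, 70.9 and 91.1 CPM. Serpine2 was 1.95-fold higher on Day 7 than on Day 3 (log2 ratio 0.96), just under the limit, and stayed under it in 5 of 12 alternatives. With each cell counted equally in place of by its UMIs, the log2 ratio from Day 3 to Day 7 was -2.02 for Serpinb2 in place of -3.15 and -1.27 for Thbd in place of -2.27, and from Day 7 to Day 14 that of Serpinb2 was 0.09 in place of -0.68. From Day 7 to Day 14, F13a1 alone was more than 2-fold lower, at 257 and 110.0 CPM after 356 CPM on Day 3, and 0 were higher, where 6.02% and 4.02% of 9846 genes were. Macrophage-like cells held 34.5%, 27.2% and 12.6% of the UMIs of kept cells over the 3 days, and the part of this share in the F13a1 sum was not tested.

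Set against macrophage-like cells of the same day, fibroblast-like cells carried more of the activator Plat, the serpins, tissue factor and its inhibitor, and less of the urokinase receptor and factor XIII. Plat was 83.9-fold, 22.6-fold and 16.8-fold higher on Days 3, 7 and 14, F3 65.2-fold, 18.5-fold and 16.2-fold, Serpine2 44.1-fold (log2 ratio 5.46, from 4.41 to 6.13 over the alternatives), 9.96-fold and 7.87-fold, and Tfpi 10.3-fold, 4.77-fold and 3.06-fold. The Serpine2 folds of Days 3 and 14 rest on only 11 and 35 UMIs in macrophage-like cells (0.911 and 2.85 CPM). Serpinb2 was 53.5-fold and 12.8-fold higher on Days 3 and 7 and 1.77-fold higher on Day 14. For comparison, the 8 fibroblast markers stood in macrophage-like cells at a median of 0.705%, 3.52% and 3.70% of their fibroblast-like level. F3 stood there at 1.53%, 5.40% and 6.17%, Serpine2 at 2.27%, 10.0% and 12.7% and Tfpi at 9.70%, 21.0% and 32.6%. F13a1 was 271-fold, 64.1-fold and 180-fold lower (log2 ratios -8.08, -6.00 and -7.49, of which the last 2 became -4.38 and -5.58 with called doublets kept), and Plaur 3.35-fold, 3.08-fold and 4.65-fold lower. The 9 macrophage markers stood in fibroblast-like cells at a median of 0.482%, 1.67% and 0.470% of their macrophage-like level. The part of RNA from the other class in these folds was not tested. In all, 5, 5 and 4 genes were more than 2-fold higher and 2, 3 and 3 lower. The 2 classes differ at many genes: 27.1%, 20.4% and 20.3% of genes counted were more than 2-fold higher and 22.3%, 20.5% and 22.4% lower on the 3 days.

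Fibroblast-like clusters differed in most of the 9 genes. On Day 14, cluster 0, led by Mgp, Cilp and Eln and holding 3489 cells, had Plat at 369 CPM and F3 at 159 CPM, whereas cluster 9, led by Tnmd, Igfbp2 and Gal with 1379 cells, had 67.3 and 13.3 CPM. Cluster 3 held more Plau, 49.0 CPM on Day 14 against 15.8 CPM in cluster 0 and 1.73 CPM in cluster 9. Within cluster 3 Plau was higher on Day 14 than on Day 7 (25.5 CPM, log2 ratio 0.94, 0.76 to 1.12), the reverse of the class as a whole. Plaur was 90.6 CPM in cluster 24 on Day 14, above the other 4 fibroblast-like clusters with at least 100 cells that day. The higher Plaur level of Day 14 was seen within cluster 3 (21.6 to 42.0 CPM) and cluster 0 (23.7 to 51.9 CPM), and Serpinb2 was lower within cluster 3 (152 to 49.7 CPM).

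Cluster 18 had 635 cells on Day 7 and 100 on Day 14. Since Crabp1, a marker of the mesenchymal cell-like class, was among its leading genes and no fibroblast marker was, it was left unnamed. Its best class was nonetheless fibroblast, with all 8 markers raised in the cluster. It had Acta2, the smooth muscle actin that wound myofibroblasts and mural cells share, at 1362 CPM on Day 7 against 147 CPM in fibroblast-like cells. Its Col1a1 was 33264 CPM on Day 7, against 42476 CPM in fibroblast-like and 7942 CPM in pericyte-like cells. The fibroblast-like values above leave the cells of cluster 18 out, which held 6.98% of the Plat UMIs on Day 7. Compared with fibroblast-like cells on Day 7, Serpine2 was 2.75-fold higher in cluster 18, at 123 CPM (log2 ratio 1.46, 1.34 to 1.57). Serpinb2 was 4.04-fold lower at 31.6 CPM, Plau 2.89-fold lower at 7.72 CPM and Thbd 2.63-fold lower at 14.0 CPM. On Day 14, when its Acta2 was 39.6 CPM, Serpine2 was 30.7 CPM. Placed among the fibroblast-like cells, the cluster made the Serpine2 difference from Day 7 to Day 14 pass 2-fold (log2 ratio -1.24).

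The other 30 genes listed for clotting and fibrinolysis were partly made elsewhere in the body. Plasminogen (Plg) had 1, 0 and 3 UMIs in all kept cells, prothrombin (F2) had 0, 2 and 3, and the fibrinogen chains Fga and Fgb had 0 throughout. Plasminogen, prothrombin and these chains were thus hardly seen as transcripts in these cells. Of 14 listed genes above the level minimum in fibroblast-like cells from Day 3 to Day 7, 2 were more than 2-fold higher (S100a10 and Tgm2) and 2 lower (Eno1 and Pros1). From Day 7 to Day 14, 1 of 13 was higher (Fgl2) and 2 lower (Eno1 and F2rl1). In macrophage-like cells 5 of 14 were lower and 0 higher at the earlier step, among them Tgm2 and F10, and 4 of 15 were lower and 1 higher at the later step. Over all genes counted the shares lower and higher were 9.49% and 4.8% and then 4.26% and 2.6% in fibroblast-like cells, and 4.91% and 3.73% and then 3.91% and 2.84% in macrophage-like cells. Eno1 has near-identical copies in the genome, so its counts are uncertain.

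S100a10, which with annexin A2 holds plasminogen at the cell surface, stood at 589, 1225 and 2131 CPM in fibroblast-like cells, an order opposite to that of Plat. Tgm2, a tissue cross-linking enzyme related to factor XIII, was 245, 116 and 40.9 CPM in macrophage-like cells and 1017 and 654 CPM in neutrophil-like cells of Days 3 and 7. F10, the clotting factor that tissue factor activates, was 98.7, 40.4 and 32.8 CPM in macrophage-like and 179 and 58.7 CPM in neutrophil-like cells. Procr, the protein C receptor that works beside thrombomodulin, was 258 CPM on Day 7 and 1244 CPM on Day 14 in pericyte-like cells, the same direction as Thbd there.

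Likeness over the 21 class-days was measured as Pearson's r of log2(CPM + 1) across 6970 genes, and the 2 genes nearest to each of the 9 are given as a description, since class-days of 1 day share a library. F13a1 was nearest to C1qa (0.98) and Pf4 (0.97), Serpine2 to Cacna1c (0.94) and Nexn (0.94), and Plat to C1qtnf6 (0.93) and Rarres2 (0.89). Tfpi was nearest to Rhoc (0.91) and Pros1 (0.89), Plaur to Dusp16 (0.87) and Snx10 (0.85), and Serpinb2 to Ereg (0.85) and Mif (0.85). The nearest to F3 were Csf1 (0.83) and Vgll3 (0.80), to Thbd Chst1 (0.82) and Zfhx3 (0.78), and to Plau Ccl2 (0.74) and Grk5 (0.71). Plau thus had the least close neighbours of the 9.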

How the data were processed

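The authors deposited gene by cell UMI counts for 1 Chromium 3' v3.1 library per day, made with Cell Ranger 6.0.0 on mm10 according to the submitters' processing notes, as unnormalised counts of called cells. The sources used here do not give the annotation release or the strand setting. Totals were 38133650, 120940799 and 112713257 UMIs in 5158, 22924 and 16611 barcodes.

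Cells with at least 200 genes, 500 UMIs and at most 10% mitochondrial UMIs passed, 4452, 21568 and 14472 of them. Of these, the 92, 1978 and 962 with the highest simulated-doublet scores were then removed. Their number was preset, at a share of 0.5 of an expected doublet rate of 0.8% per 1000 barcodes. Libraries were clustered together (2000 variable genes, 30 components, 15 neighbours, Leiden resolution 1), which gave 29 clusters. Clusters were named by standard markers, and for the mesenchymal cell-like class by markers from the study. To compare the share of cells in which a gene was found, each cell was thinned to 500 UMIs. CPM is the class sum of UMIs over all UMIs of the class. Intervals are exact at 95% (Poisson for levels, conditional binomial for ratios, Clopper-Pearson for shares). With 1 library per group no test was run; a gene was counted as higher or lower past 2-fold with a mean of at least 5 CPM. Levels are not per length, since reads tag the 3' end, so genes are not ranked against each other. The ratio intervals and the 2-fold count were tested on simulated Poisson counts, which hold no unevenness between cells. Positions are from GENCODE vM21.

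All 9 genes are named; other genes were named from a pathway list or as the 2 nearest in likeness, and genes of the pathway list with values were picked after these were seen. The 9 genes and all lists were chosen with earlier results of these data known. Alternatives were other cell filters, doublet handling, clustering, scaling, minimum levels and thinning depths. The tools were Python 3.11.15, numpy 2.4.6, scipy 1.17.1, scikit-learn 1.9.0, igraph 0.11.9, leidenalg 0.10.2 and matplotlib 3.10.9.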

Additional observations from a re-analysis of the deposited data

How the results depend on the processing

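Of 132 counts over the comparisons and alternatives, 126 stayed within 1.5 times the reported count. They were counts of genes past 2-fold, save for that of genes whose highest thinned share lay in the class-day of their highest CPM. The latter was recounted at 1000 UMIs per cell. The count for fibroblast-like cells from Day 7 to Day 14, reported as 2, became 4 with up to 20% mitochondrial UMIs, with Leiden resolution 0.5 and with each library clustered alone, and 1 with a minimum mean of 20 CPM. The count for macrophage-like cells from Day 3 to Day 7, reported as 3, became 1 with that minimum, and the count for all kept cells from Day 7 to Day 14, reported as 1, became 2 when CPM was averaged over cells. Of 1133 ratios recomputed, 784 stayed within the counting interval of the reported value, 347 moved outside it, and 2 of those reported past 2-fold changed direction: Serpinb2 in macrophage-like cells from Day 3 to Day 7 was 0.93 on the log2 scale within cluster 2 and 0.16 within cluster 5. Genes near 2-fold changed sides: F3 in fibroblast-like cells from Day 3 to Day 7 ranged from -1.35 to -0.94, Plaur from Day 7 to Day 14 from 0.81 to 1.28, Serpine2 over that step from -1.24 to -0.65, and Plat in macrophage-like cells from Day 3 to Day 7 from 0.77 to 1.39. Serpine2 over all kept cells from Day 3 to Day 7 ranged from 0.96 to 1.87. Scaling by the median of ratios moved all log2 ratios from Day 3 to Day 7 by 0.25 in fibroblast-like and 0.17 in macrophage-like cells. F13a1 in macrophage-like cells from Day 3 to Day 7 had a log2 ratio of 0.05, higher on Day 7, when the 50 most abundant genes were left out of the total, and Serpine2 in fibroblast-like cells over that step had one of -0.07 with each library clustered alone. The within-cluster values and the placing of cluster 18 were chosen after seeing the data; the causes were not tested.

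With 1 library per day, no interval covers differences between animals, pools or dissociations. The Day 3 fibroblast-like values rest on 397 cells, and the Day 7 epithelial cell-like values on 51. No paired analysis was possible because each day has 1 library and the labels carry no replicate numbers. Leaving out a replicate was not possible for the same reason.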

Other observations

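Classes with fewer than 50 cells on Day 3 belong in no comparison, but a few were deep. The 10 pericyte-like cells of Day 3 held 293207 UMIs, among them 145 of Serpine2 (495 CPM), 142 of Thbd (484 CPM) and 117 of Plat (399 CPM), and 0 of F13a1. The 12 endothelial cell-like cells held 203895 UMIs, with 46 of Plaur (226 CPM), 44 of Plat (216 CPM) and 25 of Thbd (123 CPM), and 0 of F3 and F13a1. These cells were too few to be set beside later days.

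Among the listed genes outside the 9, Tfpi2, a matrix-bound relative of Tfpi, was 59.2, 75.5 and 104 CPM in fibroblast-like cells on Days 3, 7 and 14, the opposite order to Tfpi. Mrc2, a collagen receptor that associates with the urokinase receptor, was 227, 228 and 182 CPM in the same cells. F7, the ligand of tissue factor, was 24.8, 34.8 and 13.1 CPM in macrophage-like cells and under 1 CPM in fibroblast-like cells, which held most F3.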
